A study of Mus musculus with 10 samples.

Results

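The genes described here are those of the primitive red blood cell: the embryonic globins Hba-x, Hbb-y and Hbb-bh1, the erythroid regulators Gata1 and Klf1, the erythropoietin receptor gene Epor, the haem synthesis gene Alas2, the membrane transporter gene Slc4a1 and the globin chaperone gene Ahsp. They were measured in metanephric mesenchyme, the kidney tissue that surrounds the ureteric bud, from mouse embryos at E11.5. The genes were given as a list of 9 names, and every probe set that the platform annotation assigned to exactly 1 of those symbols was taken. This gave 14 probe sets for 8 genes, of 18193 genes measured in all. Ahsp had no such probe set and is not analysed here. The arrays were 5 of Wnt9b-/- mesenchyme and 5 of Wnt9b+/+ mesenchyme, all from embryos of heterozygous intercrosses, called mutant and wild type below. The samples are labelled Wnt9b+/+, though the design text of the series speaks of Wnt9b+/- controls, and the sample labels were followed. Each array carried RNA from its own pool of 25 to 30 mesenchymes, separated enzymatically from the ureteric bud (trypsin and pancreatin), so a value is that of a pool and not of an embryo. The mutant lacks Wnt9b, a Wnt ligand made by the ureteric bud, in the whole embryo, so its blood and vessels carry the mutation as well as its kidney.

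Primitive red cells arise in the yolk sac and fill the circulation of the embryo before red cells from the liver replace them. They make haemoglobin from embryonic globins, in the mouse the alpha-like chain of Hba-x and the beta-like chains of Hbb-y and Hbb-bh1, and Hbb-bh1 is used earlier than Hbb-y as these cells mature. GATA1 and KLF1 are the transcription factors that switch on globin, haem and membrane genes in the line, and they do so through GATA and CACCC motifs in DNA. The genes are read here as those of blood carried with the pools, although Epor and Slc4a1 are also transcribed outside blood, Slc4a1 in the collecting duct of the mature kidney. In pooled tissue fewer cells of a type and less RNA per cell cannot be told apart.

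Promoters are shown for Hba-x and Alas2, whose values moved together over the arrays after quantile normalization as described below. The promoter of Hbb-y is shown too, as its brightest probe set went with Hba-x as deposited and not after that normalization. Each is the RefSeq sequence of GRCm38.p6 from 250 bases before to 50 bases after the annotated start, which is 300 bases on the strand of the gene. Capitals mark matches, on either strand, to the motifs searched. The GATA motif was AGATAA or, with other flanking letters, AGATAG, or TGATAA, or lastly TGATAG, and the others were CACCC, the CCAAT box and the TATAAA box. In these sequences no match overlaps another, though 3 in Alas2 adjoin. Hba-x lies at chr11:32276350-32276649 on the plus strand, Hbb-y at chr7:103853158-103853457 on the minus strand and Alas2 at chrX:150547167-150547466 on the plus strand.
Hba-x: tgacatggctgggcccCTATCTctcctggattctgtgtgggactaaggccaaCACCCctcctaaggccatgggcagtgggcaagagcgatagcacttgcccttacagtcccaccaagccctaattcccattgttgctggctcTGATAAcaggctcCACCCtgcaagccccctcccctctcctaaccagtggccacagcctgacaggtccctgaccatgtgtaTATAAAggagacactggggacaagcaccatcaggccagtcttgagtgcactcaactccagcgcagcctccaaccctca
Hbb-y: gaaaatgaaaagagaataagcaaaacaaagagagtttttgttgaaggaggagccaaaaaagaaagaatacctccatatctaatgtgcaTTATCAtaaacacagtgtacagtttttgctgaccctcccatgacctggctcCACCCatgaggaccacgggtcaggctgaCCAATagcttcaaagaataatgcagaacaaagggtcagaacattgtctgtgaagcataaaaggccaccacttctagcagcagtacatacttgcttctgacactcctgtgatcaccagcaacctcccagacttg
Alas2: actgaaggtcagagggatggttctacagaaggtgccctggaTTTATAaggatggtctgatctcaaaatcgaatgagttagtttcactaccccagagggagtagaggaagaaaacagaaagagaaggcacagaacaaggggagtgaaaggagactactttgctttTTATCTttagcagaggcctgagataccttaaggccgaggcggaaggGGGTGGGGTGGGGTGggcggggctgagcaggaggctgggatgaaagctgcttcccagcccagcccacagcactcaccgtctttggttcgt
The table of promoters held 6 of the 9 genes, namely these and Gata1, Klf1 and Epor. A GATA motif was found in 5 of the 6, all but Gata1, where 29.8% of the 32851 mouse promoters in the table hold one. CACCC was found in 6 of 6, against 57.5% of all promoters. CCAAT was found in Hbb-y and Klf1, against 37.4% of all promoters, and TATAAA in Hba-x and Alas2, against 13.6%. The TATAAA match of Alas2 is read on the other strand, at -209 to -204. In Hba-x the TATAAA letters lie at -28 to -23 from the start, and a GATA match at -108 to -103 is followed by CACCC at -95 to -91. In Alas2 a GATA match lies at -86 to -81, followed by 3 matches to CACCC read on the other strand between -40 and -26. A match describes the letters and is no evidence of binding.

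The deposited values are linear probe-set intensities that had been scaled so that every array has the same mean after trimming both ends. They were used as log2(signal + 1), called log2 signal below, and array medians lay between 5.99 and 6.30 on that scale. Bright probe sets differed more between arrays than the medians did. The 18 hybridisation control probe sets averaged 11.87 in mutant replicate 2 and 11.48 in wild-type replicate 3, against 9.79 to 10.87 on the other 8 arrays. Signals of 18S ribosomal RNA at its 5' end were high, at 1975 to 2587, on 4 arrays (2 mutant, 2 wild type) and low, at 92.4 to 322, on the other 6 (3 mutant, 3 wild type). Of markers of the tissue itself, 11 nephron progenitor genes averaged 8.76 in mutant and 9.49 in wild-type arrays, so markers of the labelled tissue were well represented. Replicate numbers name arrays in the order of the samples and pair nothing.

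The embryonic globin transcripts were among the brightest on every array, mutant and wild type alike, and none of them differed detectably between the genotypes. By signal, the brightest probe set of Hbb-y ranked between 20 and 78 among 45037 non-control probe sets on all arrays, that of Hba-x between 40 and 239, and that of Hbb-bh1 between 254 and 408. These ranks order probe sets by brightness, not transcripts by abundance.

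Hba-x, the embryonic alpha-like globin, had log2 signals of 14.07, 14.07, 13.51, 13.24 and 13.15 in mutant replicates 1 to 5, against 13.02, 13.14, 14.15, 13.53 and 13.24 in wild-type replicates 1 to 5. The highest array was wild-type replicate 3, mutant replicates 1 and 2 came next, and the groups overlapped over nearly their whole ranges. The mutant mean was 13.61 ± 0.44 and the wild-type mean 13.42 ± 0.45 (SD, n = 5 each), a difference of +0.19 with a 95% interval of -0.41 to 0.78 (limma adjusted p = 0.999). The difference was +0.07 without mutant replicate 1 or without mutant replicate 2, +0.09 without wild-type replicate 1, +0.12 without wild-type replicate 2, +0.30 without mutant replicate 5 and +0.37 without wild-type replicate 3. Within the 18S sets it was +0.00081 (high) and +0.32 (low).

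Hbb-y, the beta-like globin that dominates later primitive red cells, had 13.91, 14.47, 13.59, 13.53 and 13.73 in mutant replicates 1 to 5, against 13.79, 13.41, 14.62, 13.71 and 13.78 in wild-type replicates 1 to 5. The 2 highest arrays, mutant replicate 2 and wild-type replicate 3, are the 2 with the brightest hybridisation controls. Its mutant mean was 13.85 ± 0.38 and its wild-type mean 13.86 ± 0.45 (SD, n = 5 each), a difference of -0.017 with a 95% interval of -0.57 to 0.54 (limma adjusted p = 0.999).

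Hbb-bh1, the beta-like globin of the earliest red cells, had 12.83, 12.99, 12.77, 12.74 and 12.73 in mutant replicates 1 to 5, against 12.78, 12.51, 13.41, 12.45 and 12.92 in wild-type replicates 1 to 5. The mutant arrays lay within the range of the wild-type arrays. On its other probe sets the SD was 0.18 in mutant and 0.40 in wild type, and 0.38 and 0.43. On the brightest set, used here, it was 0.11 in mutant and 0.39 in wild type. Both means were 12.81, the difference was -5.84e-05 and its 95% interval ran from -0.40 to 0.40 (limma adjusted p = 1.00). With 5 pools a group, globin differences of any size inside these intervals remain compatible with the values, and no detection limit was computed.

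**Figure D1:**
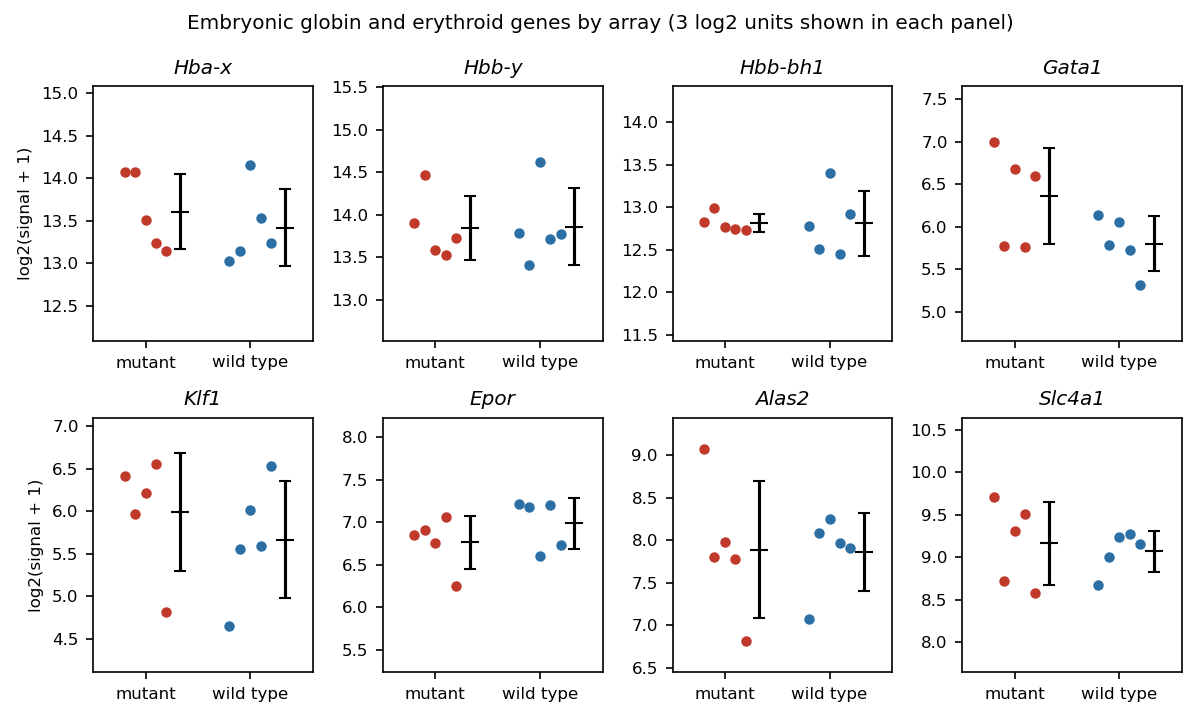
Log2 signal of the 8 measured genes on each array, with mutant arrays (red) left of wild-type arrays (blue), points in order of replicate number, and the mean and SD of the 5 arrays in black; each panel spans the same number of log2 units. The groups overlap for all 8 genes, and the widest difference in means is that of Gata1, 6.36 in mutant against 5.80 in wild type.

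The regulators were far dimmer than the globins. Gata1, the master regulator of the erythroid line, had 7.0, 5.78, 6.68, 5.76 and 6.60 in mutant replicates 1 to 5, against 6.13, 5.79, 6.05, 5.72 and 5.31 in wild-type replicates 1 to 5. Mutant replicates 1, 3 and 5 lay above all wild-type arrays, and mutant replicates 2 and 4 lay among them. The mutant mean was 6.36 ± 0.56 and the wild-type mean 5.80 ± 0.32 (SD, n = 5 each), a difference of +0.56 (SE 0.27, 95% interval -0.05 to 1.17). This did not pass (limma unadjusted p = 0.0667, adjusted p = 0.923), and its signals, 38.7 to 127, are in the lower part of the range on these arrays.

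Klf1, the factor that activates beta-like globins and red cell membrane genes, had 6.42, 5.97, 6.22, 6.56 and 4.81 in mutant replicates 1 to 5, against 4.65, 5.55, 6.01, 5.60 and 6.53 in wild-type replicates 1 to 5. One array of each group, mutant replicate 5 and wild-type replicate 1, lay well below the others of its group. The means were 5.99 ± 0.70 in mutant and 5.67 ± 0.69 in wild type (SD, n = 5 each), a difference of +0.33 with a 95% interval of -0.57 to 1.22 (limma adjusted p = 0.999). Leaving out wild-type replicate 1 gave +0.07 and leaving out mutant replicate 5 gave +0.62, the ends of the range over single arrays, and neither passed. Within the low-18S arrays the Klf1 difference was +0.78, and within the high-18S arrays -0.36.

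Epor, the receptor for the hormone that keeps red cell precursors alive, is also transcribed at low levels outside the blood line. It had 6.85, 6.92, 6.76, 7.06 and 6.25 in mutant replicates 1 to 5, against 7.22, 7.18, 6.60, 7.21 and 6.73 in wild-type replicates 1 to 5. Of the 8 genes it had the lowest difference, with a mutant mean of 6.77 ± 0.31 and a wild-type mean of 6.99 ± 0.30 (SD, n = 5 each), -0.22 with a 95% interval of -0.65 to 0.21 (limma adjusted p = 0.988). It was -0.09 without mutant replicate 5 and reached -0.32 without wild-type replicate 3. Mutant replicate 5 was the lowest array, as for Alas2 and Slc4a1, while wild-type replicate 1 was the highest.

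Alas2, the erythroid enzyme of the first step of haem synthesis, had 9.08, 7.80, 7.98, 7.78 and 6.81 in mutant replicates 1 to 5, against 7.08, 8.09, 8.25, 7.97 and 7.91 in wild-type replicates 1 to 5. It spanned the widest range of the 8 genes, 2.27 log2 units or 4.81-fold, and both ends of it were mutant arrays. The means nonetheless nearly coincided, at 7.89 ± 0.81 in mutant and 7.86 ± 0.46 in wild type (SD, n = 5 each), with a difference of +0.032 (95% interval -0.82 to 0.88, limma adjusted p = 0.999). The difference was -0.27 without mutant replicate 1 and +0.30 without mutant replicate 5, and the 18S sets gave -0.70 (high) and +0.52 (low).

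Slc4a1 encodes band 3, the anion exchanger that anchors the red cell membrane to its skeleton. It had 9.71, 8.72, 9.31, 9.51 and 8.59 in mutant replicates 1 to 5, against 8.68, 9.01, 9.24, 9.27 and 9.16 in wild-type replicates 1 to 5. As for Alas2, mutant replicate 1 was highest and mutant replicate 5 lowest, with wild-type replicate 1 the lowest of the wild-type arrays. The means were 9.17 ± 0.49 in mutant and 9.07 ± 0.24 in wild type (SD, n = 5 each), a difference of +0.09 with a 95% interval of -0.43 to 0.62 (limma adjusted p = 0.999).

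In all, 5 of the 8 measured genes were higher and 3 lower in the mutant, and 54.9% of all genes were higher. None of the 8 was called by limma at an adjusted p under 0.05, where 0.0055% of all genes were called, and none had an unadjusted p under 0.05, where 5.49% of all genes did. None had groups without overlap, where 1.21% of all genes did. The median difference over the 8 genes was +0.06, beside +0.02 over all genes. Gata1 had an unadjusted p under 0.05 under 4 of the alternatives run, with array weights (+0.65, adjusted p = 0.791), without mutant replicate 2 (+0.71, adjusted p = 0.764) or 4 (+0.71, adjusted p = 0.862), and with mutant replicate 2 and wild-type replicate 3 both left out (+0.77, adjusted p = 0.826).

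Probe sets of the same gene gave similar differences where they were bright. The 3 probe sets of Hbb-y differed by -0.0064, -0.017 and +0.12 between the genotypes, and the 3 of Hbb-bh1 by +0.11, -5.84e-05 and +0.18. Of the Slc4a1 probe sets, the brightest differed by +0.09, the next by +0.06, and the third by +0.80. The third had means of 2.44 in mutant and 1.64 in wild type, at the bottom of the array's range, where small changes in signal make large log2 differences. No member probe set was called in a fit over the 45037 probe sets, where 0.00444% were called. The probe sets that represent Hbb-y, Hbb-bh1 and Slc4a1 carry the suffix x, by which the manufacturer marks sets whose probes can match other transcripts. The beta-like globin genes resemble each other, so on these sets the 2 globins cannot be fully told apart. Sets without that suffix gave +0.12 for Hbb-y and +0.11 and +0.18 for Hbb-bh1.

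**Figure D2:**
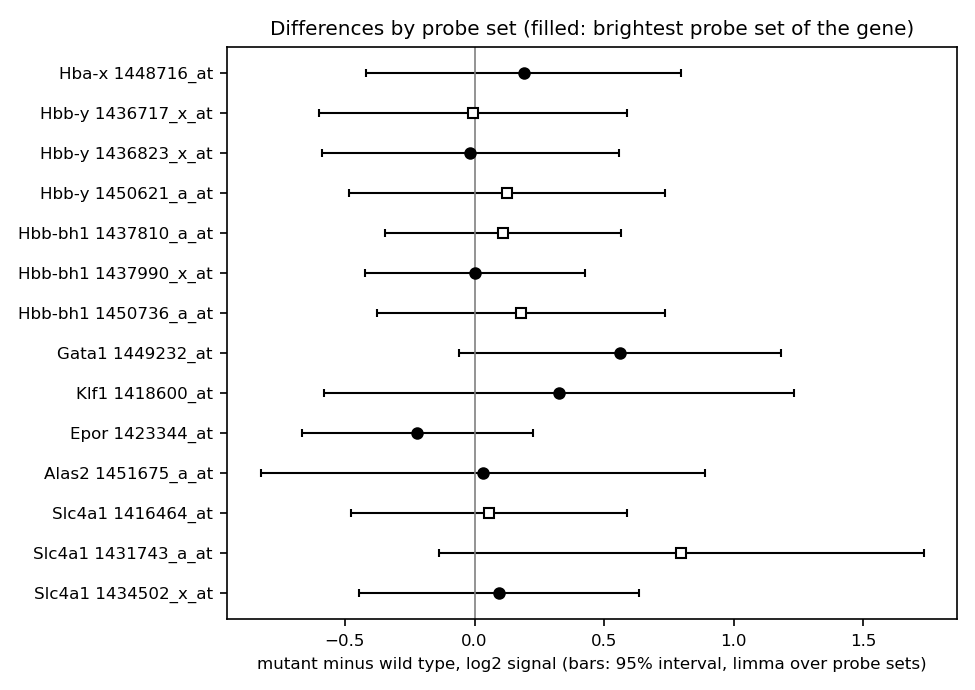
Difference in log2 signal, mutant minus wild type, for each of the 14 probe sets (points, filled for the brightest of its gene) with 95% intervals from limma over all probe sets. All 14 intervals include 0, and the widest is that of the dimmest probe set of Slc4a1, at +0.80.

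The globins moved from array to array with the brightness of the hybridisation controls, which are added at the same amount to every sample and hold no mouse RNA. Over the 10 arrays the correlation of Hbb-y with the mean of the controls was r = 0.934 (rho = 0.867, permutation p = 0.00042 and 0.00237, adjusted 0.00336 and 0.019 over the 8 genes). For Hba-x it was r = 0.757 (rho = 0.576, permutation p = 0.00968 and 0.0879, adjusted 0.0387 and 0.234), and for Hbb-bh1 r = 0.703 (rho = 0.721, permutation p = 0.0255 and 0.0238, adjusted 0.0679 and 0.0951). Without the 2 arrays farthest from the median of the controls, r was 0.865 for Hbb-y, 0.423 for Hba-x and 0.403 for Hbb-bh1, so the relations of Hba-x and Hbb-bh1 rest in large part on those arrays. Within the 6 low-18S arrays r was 0.933, 0.602 and 0.690 for Hbb-y, Hba-x and Hbb-bh1, and the 4 high-18S arrays are too few for a value. The other 5 genes had r between -0.142 and 0.136 with the controls, with adjusted permutation p from 0.973 to 0.985.

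After quantile normalization, which gives every array the same distribution of values, r with the controls was 0.055 for Hbb-y, -0.0013 for Hba-x and -0.058 for Hbb-bh1 (permutation p = 0.887, 0.997 and 0.874, each adjusted to 0.997). Within the 6 low-18S arrays Hbb-y still had r = 0.695 with the controls on this scale. The range of Hbb-y over the arrays shrank to 0.23 log2 units from 1.21 as deposited, and that of Hbb-bh1 to 0.47 from 0.96. Hba-x kept 0.81 of 1.13 log2 units. The differences between genotypes were +0.18 for Hba-x, -0.021 for Hbb-y and +0.016 for Hbb-bh1 on this scale, with limma adjusted p of 0.979, 0.995 and 0.996.

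**Figure D3:**
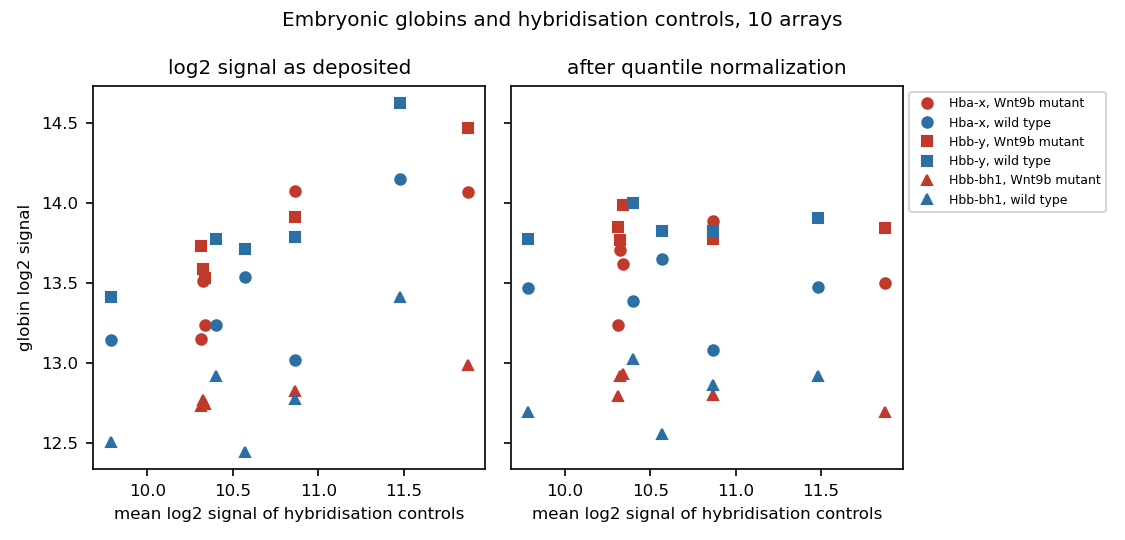
Log2 signal of Hba-x (circles), Hbb-y (squares) and Hbb-bh1 (triangles) against the mean log2 signal of the hybridisation controls on the 10 arrays, mutant in red and wild type in blue, as deposited (left) and after quantile normalization (right). As deposited, Hbb-y follows the controls (r = 0.934), and after normalization r is 0.055 over the 10 arrays.

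Whether the genes varied together over pools was asked for all 28 pairs of the 8 genes, with Benjamini-Hochberg adjustment over the pairs. As deposited, 2 pairs passed by Pearson's r and none by Spearman's rho. Hbb-y and Hbb-bh1 had r = 0.840 (rho = 0.830, permutation p = 0.0016 and 0.00471, adjusted 0.0448 and 0.132), with r = 0.505 without the 2 arrays farthest from the median of Hbb-y. Both were read from probe sets with the suffix x, on which these globins cannot be fully told apart. Alas2 and Slc4a1 had r = 0.816 (rho = 0.612, permutation p = 0.0034 and 0.0655, adjusted 0.0476 and 0.409), and 0.560 without the 2 arrays farthest from the median of Alas2. The calls depended on which array was left out. With 9 arrays, 2 pairs passed on leaving out mutant replicate 4 or wild-type replicate 1, the count was 1 without wild-type replicate 4, and it was 0 without any one of the others. Hba-x and Hbb-y had r = 0.790 (rho = 0.60, permutation p = 0.00598 and 0.0731, adjusted 0.0558 and 0.409) and did not pass. Of the 15 pairs of a globin with another gene none passed as deposited, the highest being Hba-x with Alas2 (r = 0.662, rho = 0.624, permutation p = 0.0332 and 0.0595, adjusted 0.155 and 0.409).

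After quantile normalization 3 pairs passed by Pearson's r and, again, none by Spearman's rho, and they joined Hba-x, Alas2 and Slc4a1. Hba-x and Slc4a1 had r = 0.847 (rho = 0.830, permutation p = 0.00233 and 0.00475, adjusted 0.0435 and 0.133). Hba-x and Alas2 had r = 0.829 (rho = 0.60, permutation p = 0.00466 and 0.0725, adjusted 0.0435 and 0.406). Alas2 and Slc4a1 had r = 0.819 (rho = 0.648, permutation p = 0.00378 and 0.0485, adjusted 0.0435 and 0.339). Without the 2 arrays farthest from the median of the first gene the 3 values of r were 0.718, 0.563 and 0.561, and within the 6 low-18S arrays they were 0.846, 0.858 and 0.887. Leaving out mutant replicate 1, highest for all 3 genes on this scale, gave the lowest values of r, 0.768, 0.725 and 0.711. From deviations around the genotype means r was 0.876, 0.891 and 0.822, so the relations were also seen within the genotypes.

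None of the pairs of Klf1 with these genes passed. Its r after normalization was 0.734 with Slc4a1 (rho = 0.758, permutation p = 0.0167 and 0.015, adjusted 0.117 and 0.21), 0.705 with Alas2 (rho = 0.382, permutation p = 0.0222 and 0.282, adjusted 0.125 and 0.527) and 0.687 with Hba-x (rho = 0.467, permutation p = 0.0279 and 0.177, adjusted 0.13 and 0.527). Without the 2 arrays farthest from the median of Klf1, r was 0.407 with Slc4a1 and 0.109 with Alas2, and without the 2 farthest from that of Hba-x it was 0.435 with Hba-x. The brightest probe set of Hbb-y did not follow these genes on this scale. Its r was 0.090 with Slc4a1, -0.151 with Alas2 and -0.210 with Hba-x (permutation p = 0.803, 0.681 and 0.561), where its r with Hba-x as deposited was 0.790. For the other probe sets of Hbb-y and Hbb-bh1, r with these genes was not computed, so whether they follow them was not tested. By rank among probe sets, Hba-x was highest in mutant replicate 1 (40) and lowest in wild-type replicate 1 (239). The Hbb-y set without the suffix x ranked highest in mutant replicate 1 (116) and lowest in wild-type replicate 2 (202). Of the Hbb-bh1 sets without it, 1 ranked highest in mutant replicate 1 (220) and lowest in wild-type replicate 1 (455). The other ranked highest in mutant replicate 4 (277) and lowest in wild-type replicate 1 (501). Gata1 had r = 0.290 with Hba-x and 0.195 with Slc4a1 (permutation p = 0.42 and 0.585). Mutant replicate 5 and wild-type replicate 1 were the 2 lowest arrays for Klf1, Alas2, Slc4a1 and Hba-x after normalization, and mutant replicate 1 was the highest for the last 3 of these.

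**Figure D4:**
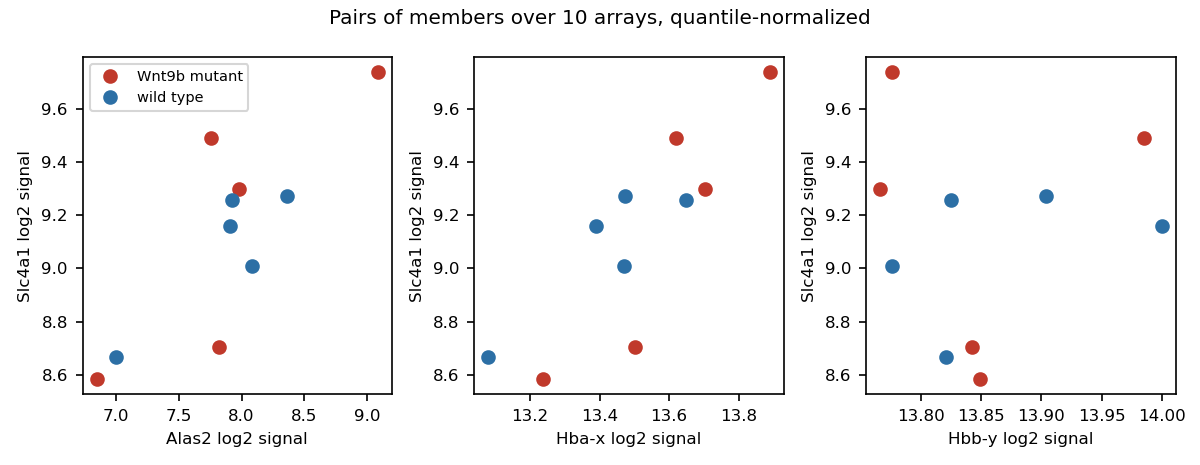
Quantile-normalized log2 signal of Slc4a1 against that of Alas2, Hba-x and Hbb-y on the 10 arrays, mutant in red and wild type in blue. Slc4a1 follows Alas2 (r = 0.819) and Hba-x (r = 0.847) over the 10 arrays. It does not follow the brightest probe set of Hbb-y (r = 0.090) on this scale.

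Likeness over the 10 arrays was ranked over 9276 genes with a mean log2 signal of at least 7, leaving out the genes described here. The 10 closest to the mean of the 3 globins as deposited were not red cell genes. They were Tmsb4x (r = 0.973), Rpl22 (0.972), Atr (0.967), Nedd8 (0.967), Rplp0 (0.966), Rpl11 (0.965), Btf3 (0.964), Rpl10a (0.962), Cox6c (0.961) and Rpl13a (0.960). Of these, Rpl22, Rplp0, Rpl11, Rpl10a and Rpl13a encode ribosomal proteins. The 10 genes' own r with the hybridisation controls was 0.840 to 0.939. On the quantile-normalized scale, a ranking added after the data were seen, the closest genes were Katnbl1 (r = 0.891), Ctla2a (0.880), Mad1l1 (0.878), Fbxl4 (0.861), Snx2 (0.860), Tmc7 (0.855), Emcn (0.845), Atp6v1h (0.844), Mcts2 (0.838) and Sertad4 (0.836). These r values are the top of a ranking and carry no test, and Emcn, a sialomucin of vessel endothelium, is the gene among them that is on a marker list used here. Of the genes left out of the ranking, Klf1 had r = 0.921 with the globin mean on this scale and Slc4a1 0.844. For Alas2 it was 0.644, for Gata1 0.119 and for Epor -0.155. As deposited, r was 0.302 for Klf1, 0.106 for Slc4a1, 0.402 for Alas2, 0.108 for Gata1 and -0.325 for Epor.

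The other genes of the red cell programme also showed no difference that passed the test. In 6 lists of adult globins, haem synthesis and iron uptake, membrane and skeleton, enzymes and maturation, transcription factors, and erythropoietin signalling, 76 of 92 genes were measured. None was called, 50 were higher and 26 lower in the mutant, and 5 had an unadjusted p under 0.05. Of all genes, 54.9% were higher, 0.0055% were called and 5.49% had an unadjusted p under 0.05 by limma. Their median difference was +0.08. The probe sets shared among adult globin genes are not analysed here, and those of a single adult globin gene were dim, with Hba-a2 at means of 6.53 in mutant and 6.69 in wild type, Hbb-b2 at 5.77 and 5.60, and Hba-a1 at 4.45 and 3.37 (difference +1.09, SE 0.55, limma adjusted p = 0.941).

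Of 14 measured genes of haem synthesis and iron uptake, 10 were higher and 4 lower in the mutant (median +0.06). The brightest, the glutaredoxin gene Glrx5 and Urod, an enzyme of the haem pathway, differed by +0.014 and +0.036, and the dim ferrireductase gene Steap3 by +1.03 (SE 0.44, limma adjusted p = 0.887). Of 16 membrane and skeleton genes 7 were higher and 9 lower (median -0.04), with the glycophorin gene Gypc at +0.14, the ankyrin gene Ank1 at -0.16 and the adhesion gene Icam4 at +0.76 (SE 0.29, adjusted p = 0.868). Of 15 enzyme and maturation genes 9 were higher and 6 lower (median +0.04). Prdx2, a peroxidase abundant in red cells, differed by -0.041, the chromatin protein gene Hmgb3 by -0.0089 and the haem-binding protein gene Hebp1 by +0.64 (SE 0.15, limma adjusted p = 0.489), which was the smallest p of the 6 lists.

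Of 17 erythroid transcription factors and cofactors, 13 were higher and 4 lower in the mutant (median +0.13). Klf3 and Foxo3, the brightest, differed by +0.18 and +0.03, and Myb, a factor of blood progenitors, by -0.49 (SE 0.18, limma adjusted p = 0.829). Of 11 genes of erythropoietin signalling 9 were higher and 2 lower (median +0.15). Kit, the receptor for stem cell factor, had means of 9.89 ± 0.22 in mutant and 9.21 ± 0.33 in wild type (SD, n = 5 each), a difference of +0.68 (SE 0.18, limma adjusted p = 0.551), and the adaptor gene Gab1 differed by +0.15.

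Other cells of blood and vessels were present in the same pools. The counts below stand beside 54.9% of all genes higher in the mutant and 5.49% with a limma unadjusted p under 0.05. That p was under 0.05 for 1 of 9 megakaryocyte and platelet genes, 2 of 14 macrophage and leukocyte genes and 0 of 12 endothelial genes. Of 9 megakaryocyte and platelet genes 8 were higher in the mutant, none called (median +0.31), with the platelet chemokine gene Pf4 at 9.30 ± 0.28 in mutant and 8.95 ± 0.04 in wild type (SD, n = 5 each, difference +0.34, SE 0.14, limma adjusted p = 0.880) and the platelet receptor gene Clec1b at +0.31. All 14 macrophage and leukocyte genes were higher, none called (median +0.34), with their mean level at 6.79 to 7.6 over mutant arrays and 6.71 to 7.18 over wild-type arrays. Csf1r, the receptor that macrophages depend on, differed by +0.34, and the complement genes C1qb and C1qa by +0.15 and +0.73. Of 12 endothelial genes 11 were higher, none called (median +0.12), with mean levels of 8.06 to 8.50 in mutant and 8.0 to 8.44 in wild-type arrays, and with Emcn at +0.15, Kdr at +0.11 and Cdh5 at +0.26. Markers of embryonic liver, the other site of red cell formation, were dim, with a mean level over 7 genes of 4.32 in mutant and 4.56 in wild-type arrays and the albumin gene Alb at 5.73 and 6.10, and the apolipoprotein gene Apoa2 at 5.65 and 5.38. Ureteric bud genes had a median difference of -0.06, with Krt18 at -0.09, Krt8 at -0.12 and Sox9 at +0.44. Nephron progenitor genes were lower in 11 of 11 (median -0.73, none called, 9 with an unadjusted p under 0.05), with Eya1 at -0.73, Sall1 at -0.42 and Uncx at -1.28.

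On the quantile-normalized scale Hba-x did not go with the brightest probe sets of Hbb-y (r = -0.210) and Hbb-bh1 (r = -0.161). Those sets carry the suffix x, and r with the other sets of these globins was not computed. Of the 3 globins as read here, Hba-x had the widest range, 0.81 log2 units against 0.23 and 0.47, so it weighs most in their mean. Set beside the quantile-normalized mean of the 3 globins over the 10 arrays, these lists differed in their typical correlation. The median r was 0.638 over 4 megakaryocyte and platelet genes with a mean log2 signal of at least 7, 0.376 over 8 macrophage and leukocyte genes and 0.238 over 11 endothelial genes, against 0.017 over all 9276 genes at that level. The platelet value depends on that minimum: the fourth of those genes, the integrin gene Itga2b, had r = -0.346, and the median over all 9 measured platelet genes was 0.174. Over all measured genes, whatever their level, it was 0.452 for 14 macrophage and leukocyte genes, 0.225 for 12 endothelial genes and -0.558 for 11 nephron progenitor genes. It was -0.548 over 10 nephron progenitor genes, and -0.488 from deviations around the genotype means. It was 0.266 over 12 red cell enzymes and maturation genes, 0.200 over 4 membrane genes, 0.025 over 9 genes of erythropoietin signalling, -0.028 over 7 ureteric bud genes, -0.067 over 13 genes of haem synthesis and iron uptake, and -0.074 over 10 transcription factors. Values above 0.6 were reached by 2.78% of all genes at that level and, among list genes at that level, by Pf4 (0.648), Ppbp (0.702), Clec1b (0.628), the erythroid nuclear protein gene Hemgn (0.755), Kitl (0.795), Tyrobp (0.671), Emcn (0.845), Esam (0.769) and Icam2 (0.672). As deposited the medians were 0.010 for platelet, -0.105 for macrophage, 0.087 for endothelial and -0.130 for progenitor genes. These r values are descriptions over arrays that share scaling and a tissue of fixed total, and the part of other cell types in them was not tested.

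**Figure D5:**
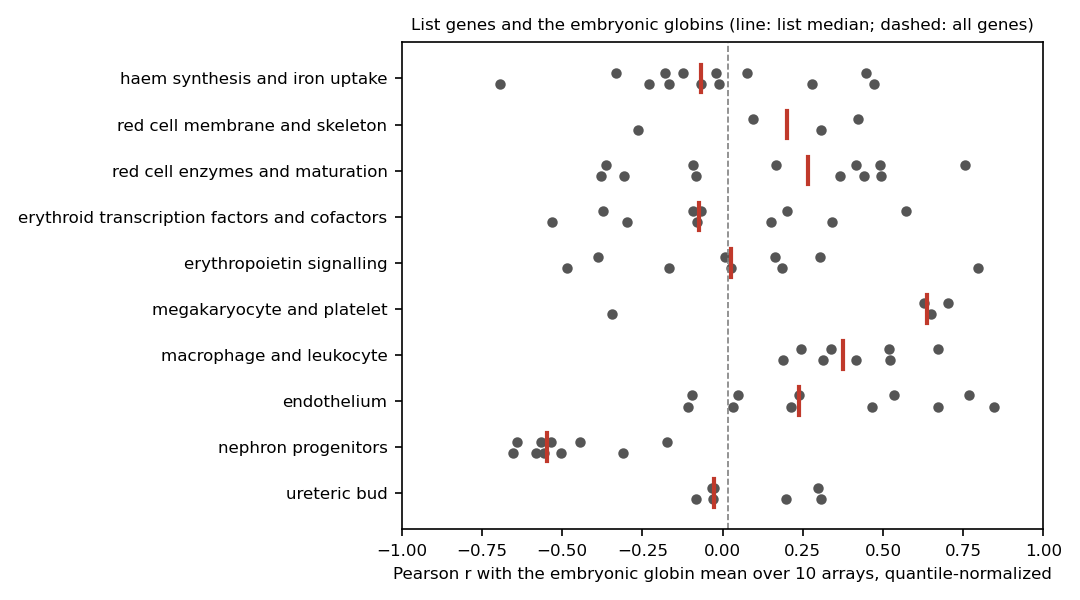
Pearson r over the 10 arrays between each list gene with a mean log2 signal of at least 7 (points) and the mean of the 3 embryonic globins, both quantile-normalized, with list medians as red lines and the median of all such genes, 0.017, dashed. Nephron progenitor genes lie lowest (median -0.548), and the 4 platelet genes run from -0.346 to 0.702 (median 0.638).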

How the data were processed

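The files analysed are 1 table of 45101 probe-set intensities on 10 arrays, deposited by the authors on a linear scale. How probes were summarised is not stated in the labels or the file. Per the labels' protocols, about 1 ug of Trizol-extracted RNA per pool was amplified to biotin-labelled cRNA. The 64 control probe sets were left out of tests. The platform annotation gave 34945 probe sets 1 symbol, 932 several, and 9160 none. The brightest probe set on average stood for its gene. Values were log2(signal + 1), and no further normalization was applied because array medians differed by under 0.5.

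The test of genotype was that of limma 3.58.1 under R 4.3.3 (lmFit and eBayes, two-sided) with Benjamini-Hochberg adjustment over all genes and a threshold of 0.05. A fold change on this scale understates that of dim genes, and no detection calls were used, so dim values have no known floor. Correlations used 100000 resamples (two-sided permutation tests, numpy 2.4.6), exact where 9 arrays were left. Tests were checked on simulated data. The members, lists and alternatives were chosen with earlier results of these data known. Named list genes are called genes, the 2 brightest and the one with the smallest p of each list, and others given were chosen after their values were seen. The labels name separate pools, so p-values measure the spread between pools. The number of arrays limits the precision.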

Additional observations from a re-analysis of the deposited data

Results flagged for a closer look

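Within each group of 5 arrays, the farthest array was set against the group's range for the 14 probe sets, 2 means over genes and the hybridisation controls, 34 groups of values in all. By chance 1.7 such groups, 1 in 20, would stand apart, and 2 did. The mean log2 signal of the 3 embryonic globins was 14.06 in wild-type replicate 3, far above the 13.02 to 13.31 of the other wild-type arrays. That array also had the brightest hybridisation controls among wild-type arrays, and after quantile normalization its globin mean was 13.43, within the 13.26 to 13.47 of the other wild-type arrays. The mean of the other 5 genes was 6.75 in wild-type replicate 1, below the 7.12 to 7.23 of the other wild-type arrays, and it was 6.68 after quantile normalization, against 7.10 to 7.38.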

How the results depend on the processing

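None of the 8 genes was called in any of 180 combinations of gene and alternative, and 29 of these turned the direction, all for differences that were not called. The median difference over the 8 genes ran from -0.019 to +0.27 on leaving out each array in turn. Hbb-y turned to +0.034 with the mean of its probe sets, +0.020 with array weights, +0.035 within the high-18S arrays, +0.017 without mutant replicate 2 and wild-type replicate 3, whose hybridisation controls were brightest, and +0.12 on another probe set. Hbb-bh1 turned to +0.096, +0.037, +0.024 and +0.10 under the same 4 settings in that order, to +0.016 with quantile normalization, and to +0.11 and +0.18 on its other probe sets. Alas2 turned to -0.078 with array weights and -0.70 within the high-18S arrays, where Klf1 was at -0.36 and Slc4a1 at -0.035. On leaving out each array in turn, Hbb-y ran from -0.17 to +0.17, Hbb-bh1 from -0.091 to +0.15, Alas2 from -0.27 to +0.30, and Slc4a1 from -0.041 to +0.24. Over all genes 1 was called, and 0 were with the mean of probe sets, the 18S block, within either 18S set, or without those 2 arrays. The count was 6 without the dimmest 40% of genes, 10 with an intensity trend and robust moderation, and 0 to 2 on leaving out each array. Those settings called 1 list gene (Uncx) and 2 (Uncx and Itga8), both nephron progenitor genes, against 0 otherwise. The cause was not tested. With the replicate block for titles that share wording, 0 genes were called and Gata1 stayed at +0.56 (limma adjusted p = 0.835). Deviations of those 3 pairs of arrays correlated at 0.098, 0.143 and 0.0987, not all over 0.1, so they were not taken as paired, although each pair also lies within 1 of the 18S sets. Of the 28 pairs of genes, 2 passed as deposited, 3 with quantile normalization, 2 with a pseudocount of 16, and 0 to 2 on leaving out each array, where 9 arrays remain. The quantile-normalized likeness, the medians over all measured list genes and the relations with hybridisation controls were added after the data were seen. Dim genes such as Gata1 and Klf1 have no measured background here.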
